A study of Mus musculus with 12 samples.

Results

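The change in RNA stability upon loss of Dgcr8 was measured in mouse embryonic stem cells (ESCs) for 14033 of the 51467 genes of the count table, which were those reaching 3 CPM (reads of a gene relative to all reads of its library) in 3 or more of the libraries. Wild-type (WT) V6.5 ESCs were compared with Dgcr8 KO ESCs, and both were grown with serum, LIF and 2 inhibitors (2i). Cells of both genotypes received 500 µM 4-thiouridine (4sU) for 30 min, and each RNA sample was divided into a 4sU library (biotinylated, captured RNA made during the pulse) and a total library (RNA left after rRNA depletion). There were 3 samples per genotype and assay, so all 12 libraries of the series entered the comparison. The 4sU and total libraries of a genotype with the same number in their titles are called a culture below. That word stands only for the number. The KO line had been made earlier and each genotype is represented by a single line, so that genotype and line cannot be told apart, and nothing in the labels states that the samples of a genotype were independent of each other beyond their numbers. The p-values therefore measure the spread between these samples, which may be technical.

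Dgcr8 is the RNA-binding partner of the nuclease Drosha. Together they cut microRNA hairpins out of their primary transcripts, and without either of them nearly all microRNAs are lost. Mature microRNAs load into Argonaute proteins, pair through their seed with sites in 3′ UTRs, and recruit deadenylation and decapping enzymes that shorten the life of the mRNA. ESCs depend heavily on the miR-290 family, members of which share their seed with miR-302, for their fast cell cycle.

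Stability was read from how much total RNA of a gene a culture held for each unit of its 4sU RNA. A gene with the same 4sU signal and a higher total signal has a longer-lived RNA, provided that its level is not changing during the measurement, and this condition was not tested. This total-to-4sU ratio has no absolute unit, so it is compared here only between genotypes, and in such bulk samples fewer cells of a kind and less RNA per cell cannot be told apart. A positive log2 change means more stable in Dgcr8 KO, and a negative one less stable.

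Total counts ranged from 4593914 to 9295245 per library. Dgcr8 itself held 356 to 456 counts in KO and 565 to 681 in WT 4sU libraries. In total libraries it held 222 to 298 counts in KO and 648 to 911 in WT. Its change was -1.60 in total RNA and -0.51 in nascent RNA on the log2 scale. Dgcr8 was thus among the genes called less stable below (-1.09, limma adjusted p = 3.11e-08). As it is the knocked-out gene, its RNA in KO may differ from that in WT, so the 2 ratios may not describe the same mRNA. All 10 ESC markers, among them Pou5f1, Sox2 and Nanog, passed the filter, and their summed level was 4439 to 4632 CPM in WT and 4590 to 4692 in KO total libraries. In the 4sU libraries it was 5673 to 5763 in WT and 6732 to 7210 in KO, and 6 of the 10 passed adjusted p for stability. The 8 feeder fibroblast markers summed to 10.1 to 12.4 CPM in WT and 5.22 to 6.54 in KO total libraries, with Postn and Dcn at 0 counts in every library. Neural markers summed to 141 to 144 CPM in WT and 77.1 to 84.2 in KO total libraries. The 5 endoderm markers summed to 5.96 to 7.19 CPM in WT and 6.58 to 7.66 in KO total libraries, and the 4 mesoderm markers to 2.25 to 3.55 and 7.38 to 9.56. The part of these levels in the results was not tested.

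Calls required an adjusted p under 0.05 (limma, Benjamini-Hochberg over all tested genes) and a log2 change over 1 in size. By this rule 111 genes were more stable in Dgcr8 KO (0.791% of those tested) and 136 were less stable (0.969%). Without the limit on size, 704 genes (5.02%) were past adjusted p as more stable and 1557 (11.1%) as less stable. More stable genes thus made up 31.1% of those past adjusted p. This share became 52.2% with RLE in place of TMM scaling, which placed the median of all genes at -0.00257 rather than -0.09. The middle 50% of genes lay between -0.32 and 0.13. Values below use TMM scaling and are read against the median of -0.09.

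Either side of the ratio could differ. Among the 111 genes called more stable, 33 had more total RNA with no change past the test in nascent RNA, 39 rose in both, and 26 rose in total RNA while nascent RNA fell. In 11 more, nascent RNA fell and total RNA did not pass the test. Among the 136 genes called less stable, 54 fell in total RNA with no nascent change past the test, 23 rose in nascent RNA with no change past the test in total RNA, 21 rose in nascent and fell in total RNA, 20 rose in both and 17 fell in both. The median change of the called genes was 1.5 in total and 0.07 in nascent RNA for the more stable set, and -0.94 in total and 0.44 in nascent RNA for the less stable set. These medians describe genes chosen on the same values and carry no test.

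Among genes with at least 10 counts in each library that edgeR also called and whose cultures did not overlap between genotypes, 53 protein-coding and 21 other genes were more stable, and 73 and 15 were less stable. The leading coding genes by size of change are described next, 15 in each direction.

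Regulators of the cell cycle, cell death and signalling were among the more stable coding genes. Zfp367 (chr13:64133018-64153202 in mm10), a zinc finger transcription factor, had total-to-4sU ratios of 0.191, 0.227 and 0.212 in WT and 0.708, 0.718 and 0.648 in KO. Its stability change was 1.72 ± 0.0802 (SE; limma adjusted p = 2.19e-16), with changes of 1.23 in total RNA and -0.48 in nascent RNA. Rbl2 (chr8:91070057-91123844), the p130 member of the Rb family of cell cycle inhibitors, had ratios of 0.854, 0.739 and 0.616 in WT and 1.92, 1.94 and 2.00 in KO, a change of 1.43 ± 0.129 (limma adjusted p = 1.39e-09). Casp2 (chr6:42264985-42282508), an apoptotic protease, went from 0.260, 0.270 and 0.267 to 0.723, 0.699 and 0.823. In all of these the cultures of the genotypes were apart, as the rule for naming them required.

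Signalling genes stood beside them. Gnb5 (chr9:75306288-75345871), a G-protein beta subunit, had ratios of 0.693, 0.669 and 0.629 in WT and 3.49, 2.38 and 3.51 in KO, and at 2.16 ± 0.336 its change was the largest of the 15, on a level of only 3.31 CPM in WT total RNA. Irak2, a kinase downstream of interleukin-1 and Toll-like receptors, rose from ratios of 0.215, 0.178 and 0.174 to 0.546, 0.563 and 0.616. Its total RNA rose by 2.59 and its nascent RNA by 0.96, a difference of 1.63 ± 0.131 (limma adjusted p = 1.61e-10). Elmo3 (1.48), which belongs to a family of Rac activators, and Tmem123 (1.53), a membrane protein, also rose.

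Nuclear regulators formed another part of the leading set. Lcor, a ligand-dependent nuclear receptor corepressor, had ratios of 0.364, 0.424 and 0.362 in WT and 1.30, 1.04 and 0.979 in KO. Its nascent RNA changed by 0.02 (adjusted p = 0.853) and its total RNA rose by 1.55. Gpkow (1.46), a spliceosome-associated protein, and Znfx1 (1.42), a helicase that senses viral RNA, were more stable too. Among the remaining 5 genes, 9530068E07Rik rose by 1.99 ± 0.0960 with ratios of 0.491, 0.597 and 0.642 in WT and 2.30, 2.21 and 2.34 in KO. Col2a1 (1.71), a cartilage collagen, Serpinb9b (1.57), a granzyme inhibitor family member, Spryd3 (1.56) and the imprinted gene Ndn (1.41) had fewer counts, with minima of 18, 24, 94 and 26 in a library.

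Sequence in the 3′ UTR was examined for these genes, because the lost microRNAs act there. The mature forms below, taken from RefSeq (GRCm38.p6), are shown with bases 2 to 8 in capitals, since these pair with the target, and are listed 5′ to 3′. The miR-291a, miR-294, miR-295 and miR-302b forms share a seed, miR-17 carries the same bases moved by a position, and let-7a is shown as an unrelated contrast.
mmu-miR-291a-3p: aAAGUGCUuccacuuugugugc
mmu-miR-294-3p: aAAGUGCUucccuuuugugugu
mmu-miR-295-3p: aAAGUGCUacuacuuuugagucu
mmu-miR-302b-3p: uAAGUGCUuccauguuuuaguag
mmu-miR-17-5p: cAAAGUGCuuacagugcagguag
mmu-let-7a-5p: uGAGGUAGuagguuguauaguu

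The hexamer GCACTT pairs with the miR-291a and miR-17 seeds alike. It was present in the longest annotated 3′ UTR of 11 of the 15 more stable genes and 4 of the 15 less stable genes, and AGCACTT in 9 and 2. Over all 11821 3′ UTRs the hexamer was in 35.5%, and it was in 67.6% of those of genes called more stable and 21.5% of those called less stable. The windows below, from GENCODE M21 transcripts, show where a match lies in 4 of these mRNAs, with AGCACTT in capitals. They are Zfp367 (chr13:64134991-64135020, minus strand), Gnb5 (chr9:75345278-75345307, plus), Casp2 (chr6:42281546-42281575, plus) and Znfx1 (chr2:167036545-167036574, minus), all within the 3′ UTR in mm10, and a match is a description of letters and not a tested site.
Zfp367: gttctcacaggaAGCACTTtgtgaataaga
Gnb5: gtctgtcttcagAGCACTTtaaactgtacc
Casp2: atataacctagaAGCACTTgtctctgctct
Znfx1: tgcgctagagtaAGCACTTtacccccagca

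The hexamer was not found in Col2a1, Spryd3, Lcor or Elmo3, whose 3′ UTRs are 438, 1051, 2981 and 2026 bases long, although each of these 4 was called more stable. Conversely Gng7, a less stable gene, held AGCACTT once and Efhd1 likewise.

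The less stable coding genes opened with Socs3 (chr11:117966079-117969186), the feedback inhibitor of LIF and STAT3 signalling. Its ratios were 0.555, 0.542 and 0.536 in WT and 0.144, 0.163 and 0.160 in KO, with little spread within a genotype. The change was -1.80 ± 0.107 (limma adjusted p = 1.22e-13), made of a rise of 2.12 in nascent RNA, from 136 to 592 CPM on average, and of 0.32 in total RNA, from 73.8 to 91.8 CPM. Pim3, a kinase whose gene is also switched on by STAT3, had ratios of 0.541, 0.651 and 0.526 in WT and 0.203, 0.208 and 0.204 in KO. Unlike Socs3, its total RNA fell, from 141 to 70.6 CPM on average, while its nascent RNA rose from 248 to 344 CPM. Maff, a small Maf transcription factor, changed by -1.56 ± 0.329 on fewer reads, with ratios of 1.28, 0.738 and 0.866 in WT and 0.329, 0.305 and 0.301 in KO.

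Other regulators followed. Klf16, a GC-box binding transcription factor, had ratios of 0.883, 0.642 and 0.681 in WT and 0.250, 0.271 and 0.312 in KO, a change of -1.39 ± 0.128. Gng7 (-1.68), a G-protein gamma subunit, had more nascent RNA (1.08) and less total RNA (-0.60), and Tcf19 (-1.36), a growth-linked nuclear factor, followed the same pattern with 0.59 and -0.76. Pard6a (-1.52), a cell polarity protein, fell in total RNA by 1.32, and its nascent change of 0.20 did not pass the test.

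The remaining genes had varied roles. Tomm5, a subunit of the mitochondrial import pore, had ratios of 1.32, 0.989 and 1.08 in WT and 0.325, 0.543 and 0.397 in KO, and its nascent change of -0.00444 left a total change of -1.44. Usb1, an exonuclease that trims the end of U6 snRNA, changed by -1.39 ± 0.160 and Trmt112 (-1.45), the activator of several methyltransferases, behaved alike in direction. For Trmt112 the second WT culture, at a ratio of 0.273, lay nearer to the KO cultures (0.135 to 0.193) than the other WT cultures at 0.563 and 0.622. Clgn (-1.62), a testis chaperone, Fam241b (-1.63), Ppdpf (-1.43), Efhd1 (-1.41), a calcium-binding mitochondrial protein, and Cpne5 (-1.35) completed the 15. Efhd1 had an adjusted p of 0.00944 and lost its call without WT replicate 2 or without KO replicate 2.

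**Figure D1:**
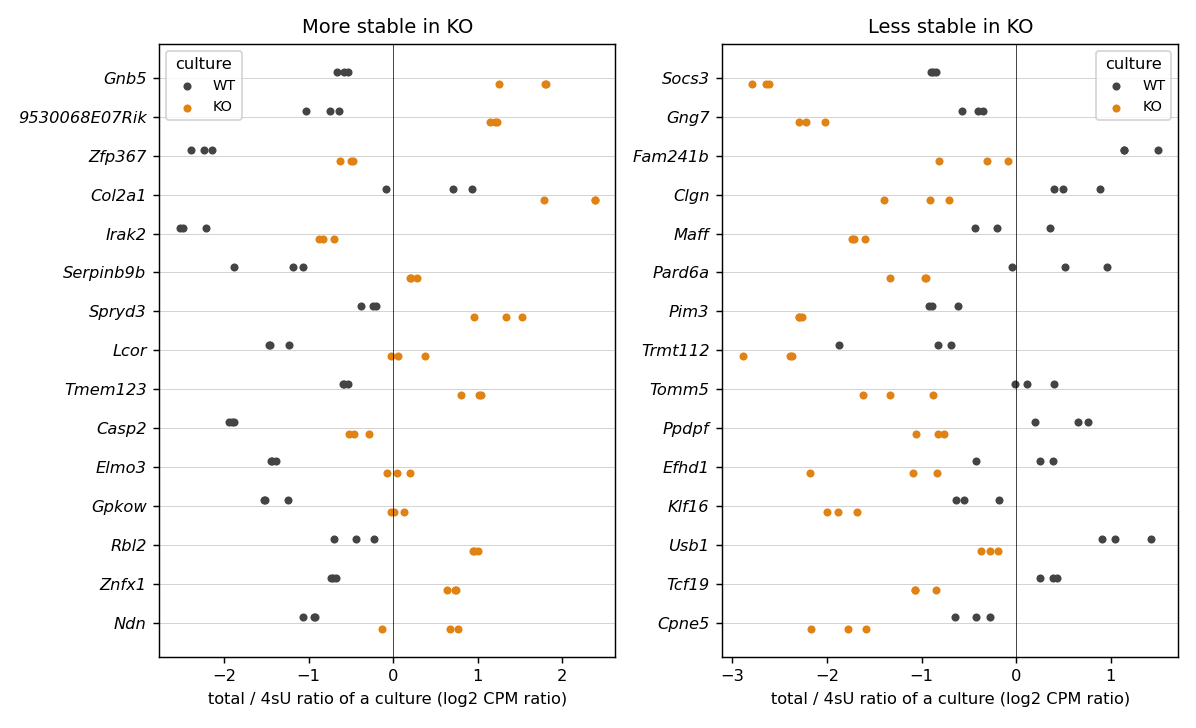
Total-to-4sU ratio (log2 of the CPM ratio) of each of the 6 cultures for the 15 protein-coding genes with the largest rise (left) and fall (right) in stability by the naming rule. WT cultures are grey and KO cultures orange, and they do not overlap in any of the 30 genes, as the rule required.

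Transcripts that give rise to microRNAs were described next, by gene class. Of 70 tested genes annotated as microRNA hairpins, 15 were called more stable (21.4%, against 0.791% of all genes) and 1, Gm26298, less stable. Of the 15, 7 had fewer than 10 counts in some library and 7 were hairpins of the miR-290 cluster. Mir15b, among the former, was not called by edgeR (adjusted p = 0.212) and its cultures overlapped. Mirg, the microRNA host gene of the imprinted Dlk1-Dio3 region (chr12:109729764-109749460), had ratios of 0.227, 0.251 and 0.214 in WT and 1.19, 1.33 and 1.35 in KO. Its change was 2.48 ± 0.104 (limma adjusted p = 1.73e-17). Other noncoding genes of the same strand and region differed in size of change. B830012L14Rik, which lies between Rian and Mirg, was called more stable at 1.57 ± 0.365 (limma adjusted p = 0.00259), with ratios of 0.0787, 0.169 and 0.190 in WT and 0.657, 0.433 and 0.259 in KO and as few as 9 counts in a library. Rian, which hosts snoRNAs, changed by 0.33 (adjusted p = 0.00475), and Meg3 by -0.01 (adjusted p = 0.976), although total RNA of Meg3 was 0.93 higher and its nascent RNA likewise.

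Host genes of the miR-17-92 and miR-15a/16-1 clusters changed the same way. Mir17hg had ratios of 0.110, 0.0986 and 0.115 in WT and 0.419, 0.399 and 0.457 in KO, and Dleu2, within which Mir15a and Mir16-1 lie, 0.154, 0.187 and 0.199 in WT and 0.490, 0.476 and 0.424 in KO. The changes were 1.97 and 1.37, and in both the total RNA rose while the nascent RNA fell (-0.32 and -0.46). All 7 hairpins of the miR-290 cluster on chromosome 7 were called, with changes of 1.20 to 1.57 and ratios of 0.0615 to 0.140 in WT against 0.189 to 0.316 in KO. They share 1 primary transcript, so they are not independent measurements. The 5 tested hairpins of the miR-302 cluster had changes of -2.30 to -0.88 and none passed, on minima of 0 or 1 count in a library. Their direction was not detectable at this depth.

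The antisense transcript Nespas of the imprinted Gnas locus, near which Mir296 lies, rose by 1.51 ± 0.142, with ratios of 0.397, 0.351 and 0.385 in WT and 1.13, 1.01 and 1.08 in KO. E130102H24Rik (chr4:101346531-101356248) rose by 2.96 ± 0.277 and Gm37296 (chr15:68338295-68341216) by 2.76 ± 0.258. Ratios of the former were 0.155, 0.116 and 0.115 in WT and 1.08, 1.13 and 0.852 in KO. What these RNAs do is not stated in the annotation used here.

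Small nucleolar RNAs, which guide modification of ribosomal RNA and are mostly trimmed from introns, were tested too. Of 190 tested, 32 passed adjusted p as more stable (16.8%, against 5.02% of all genes), none as less stable, and the median change was 0.25. For this class the median change was -0.08 in total RNA and -0.39 in nascent RNA. Snord22, for example, had ratios of 0.748, 0.597 and 0.679 in WT and 1.20, 1.27 and 1.11 in KO (0.84 ± 0.177), and Snora73b changed by 0.45. Both were chosen as examples after their values were seen. The counts come from reads of 50 bases, so a snoRNA read and a read of the host intron cannot be told apart.

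Antisense transcripts had 16 past adjusted p as less stable (5.97%) and 3 as more stable (1.12%) among 268, both below the 11.1% and 5.02% of all genes, and a median of -0.24. Most of the 10 that were called had fewer than 10 counts in some library. Among intergenic noncoding RNAs, 20 of 340 passed as less stable (5.88%) and 10 as more stable (2.94%), also below the shares of all genes. By the naming rule the leading falls were 5033406O09Rik (-1.75), Gm46332 (-1.48) and Platr26 (-1.28), besides the antisense gene 2810001G20Rik (-1.41). Neat1, the scaffold of nuclear paraspeckles, fell by 0.43, with nascent RNA 0.83 and total RNA 0.40 higher in KO.

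Functional groups were described for 64 lists of genes, which together hold 3123 tested genes. In 49 of them more members passed adjusted p as less stable than as more stable, in 11 the reverse held and in 4 the numbers were equal. Under RLE scaling these numbers were 25, 31 and 8, so the direction of a list with few changes depends on the scaling, as it does for the whole table. Counts under RLE scaling are given beside many of the lists below, and a list without them may also differ. Shares of a list are to be read against 5.02% more stable and 11.1% less stable over all tested genes.

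**Figure D2:**
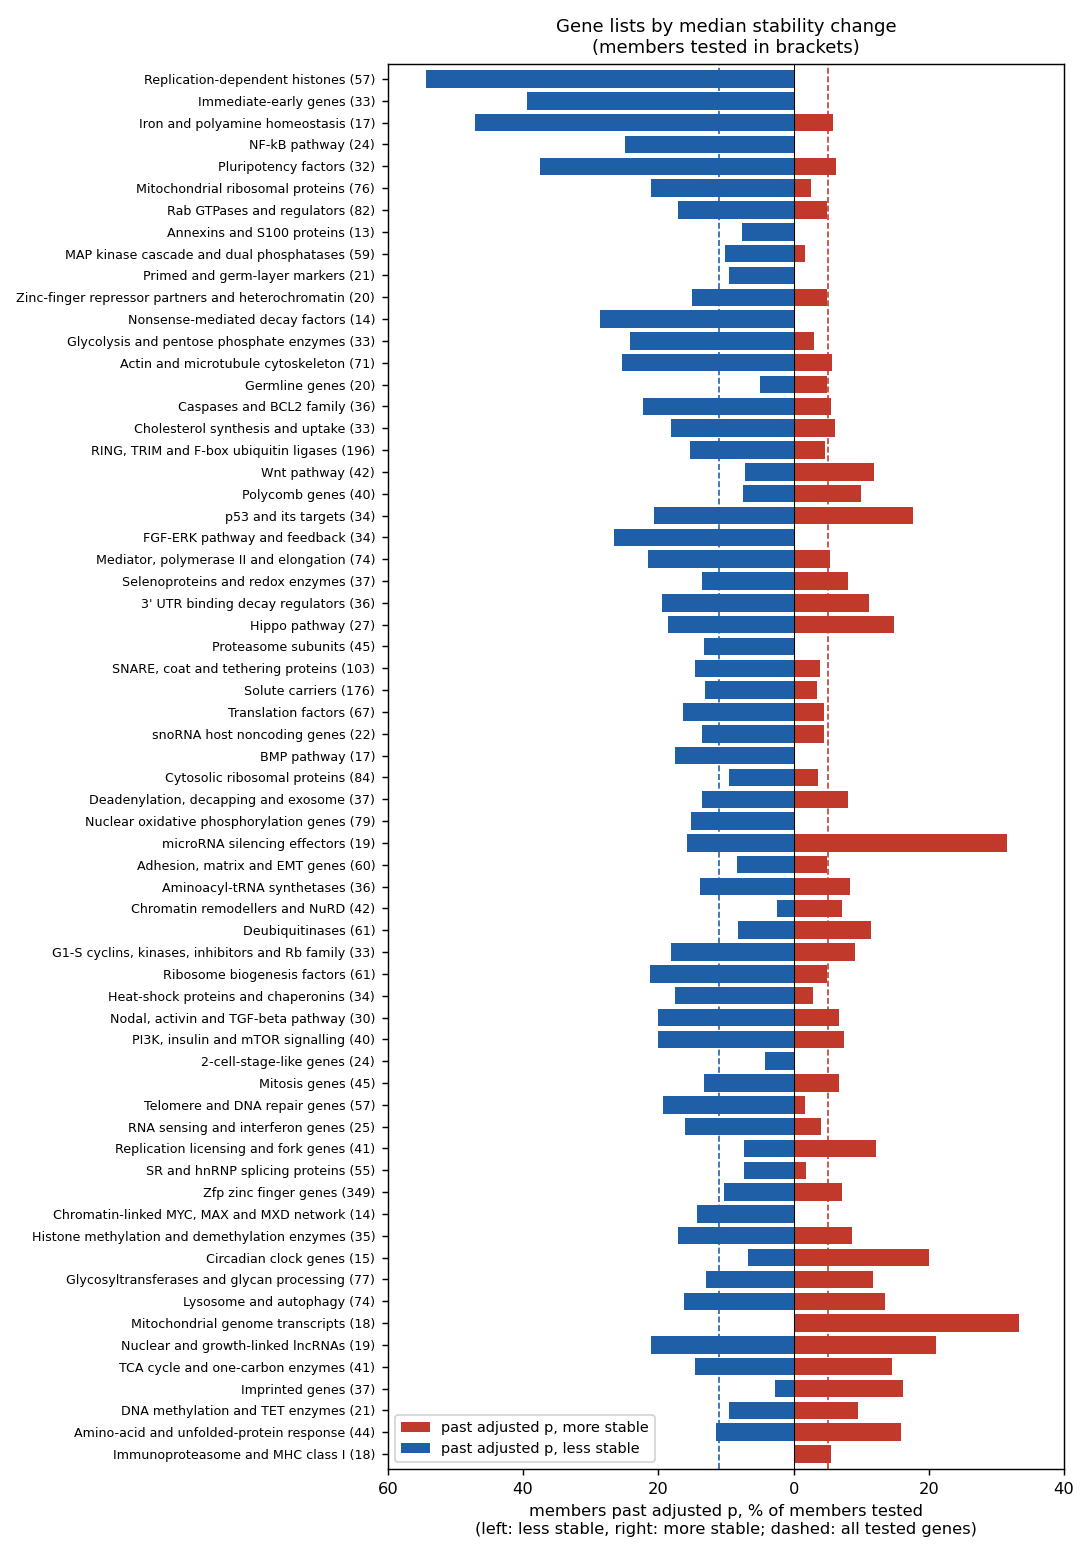
Share of the tested members of each of the 64 lists that passed adjusted p as less stable (blue, left) or more stable (red, right), in percent, ordered by median change with the lowest at the top. Dashed lines give the shares over all tested genes, 11.1% and 5.02%, and replication-dependent histones show the longest blue bar, at 54.4%.

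Replication-dependent histone mRNAs, which end in a stem-loop in place of a poly(A) tail and are made in S phase, had the lowest median of all lists. Of 57 tested, 31 fell (54.4%), none rose, and the median change was -0.45 against -0.09 for all genes. Their total RNA was lower (median -0.71) and their nascent RNA too (median -0.30). Hist2h2bb had ratios of 0.514, 0.504 and 0.391 in WT and 0.258, 0.285 and 0.256 in KO, a change of -0.81 ± 0.0940. The linker histone gene Hist1h1b went from 0.307, 0.304 and 0.254 to 0.168, 0.195 and 0.182, and its total RNA from 685 to 198 CPM. The fall was spread over core classes, with Hist1h3a at -0.75, Hist1h2bj at -0.72 and Hist1h4b at -0.70, and no member exceeded a log2 change of 1 among those that passed. These genes are close copies of each other, so reads that map to several of them were lost in counting and values of single members are uncertain. Less stable members numbered 28 with RLE scaling and 23 with DESeq2, 13 where no filter beyond a single count was set, and 46 without WT replicate 3, and no member passed as more stable in any alternative.

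Immediate-early genes, which respond to growth factors within minutes and whose mRNAs are short-lived, were the next group. Of 33 tested, 13 fell (39.4%, or 12 under RLE scaling) and none rose, with a median of -0.41. The 3 called were Maff, Junb and Jund. Junb, an AP-1 subunit, had ratios of 0.378, 0.428 and 0.383 in WT and 0.148, 0.171 and 0.159 in KO (-1.28 ± 0.216), while its nascent RNA rose by 2.45 and its total RNA by 1.18. Jund moved in the same manner, with 0.891, 0.956 and 0.948 in WT and 0.376, 0.493 and 0.462 in KO. In this list the median change of nascent RNA was 0.66 and that of total RNA 0.30, so the ratio was lower with more RNA of both kinds.

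Klf6 (-0.90), a zinc finger transcription factor, Rhob (-0.96), a small GTPase, Ier3 (-0.96), Trib1 (-0.71), a pseudokinase, Dusp1 (-0.58), a MAP kinase phosphatase, and Nr4a1 (-0.51), a nuclear receptor, also fell. For Rhob the ratios of 0.218, 0.276 and 0.252 in WT came down to 0.117, 0.131 and 0.136 while its total RNA rose from 33.5 to 90.3 CPM. Fos (-0.31), Jun (-0.46) and Myc (0.49) did not pass, at adjusted p of 0.514, 0.190 and 0.628. Jun and Fos nevertheless had 2.30 and 1.63 more nascent RNA on the log2 scale.

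Related signalling feedback genes were partly alike. In the NF-kB list 6 of 24 fell and none rose with TMM scaling, although edgeR, DESeq2 and the other scalings each placed 1 member past the test as more stable. Nfkbia, the inhibitor that NF-kB itself induces, changed by -0.55 with nascent RNA up by 1.23. In the FGF-ERK list 9 of 34 fell (26.5%) and none rose, led by Spry1 (-0.92), a feedback inhibitor, and the GTPase Hras (-0.80), whose ratios were 1.31, 1.20 and 1.26 in WT and 0.729, 0.686 and 0.765 in KO. That count became 5 under RLE scaling and 5 without WT replicate 1. The median of the FGF-ERK list was -0.10, near the -0.09 of all genes. Nascent RNA of Spry1 (-0.35) and Hras (-0.32) was lower, unlike that of Nfkbia.

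Pluripotency factors moved in both directions. Of 32 tested, 12 fell (37.5%) and 2 rose, with a median of -0.19, and 6 fell and 3 rose under RLE scaling. Those that fell were nuclear factors and growth regulators of the stem cell state. Klf4 had ratios of 0.274, 0.286 and 0.282 in WT and 0.175, 0.201 and 0.202 in KO (-0.55 ± 0.0937), Nanog 0.569, 0.632 and 0.577 in WT and 0.444, 0.464 and 0.493 in KO (-0.34 ± 0.0630), and Esrrb changed by -0.45. Tcl1 (-0.69), an AKT coactivator, and Tdgf1 (-0.65), the Nodal coreceptor Cripto, changed most. Pou5f1, at 0.12 and an adjusted p of 0.252, did not pass, and Sox2 passed at -0.19.

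The 2 that rose were the chains of the LIF receptor. Il6st, which encodes gp130, had ratios of 0.792, 0.887 and 0.796 in WT and 1.55, 1.47 and 1.46 in KO (0.86 ± 0.0729, limma adjusted p = 4.69e-10), with total RNA up from 138 to 439 CPM. Lifr had ratios of 1.24, 1.22 and 1.22 in WT and 1.63, 1.55 and 1.43 in KO (0.33 ± 0.0852). Stat3, which acts below them, changed by 0.16 (adjusted p = 0.424). Without KO replicate 1 only 1 member of the list passed as more stable.

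Iron and polyamine genes are a small list with a high share of changes. Of 17 tested, 8 fell (47.1%) and 1 rose, while 7 fell under RLE scaling and 5 with DESeq2. Odc1, the rate-limiting enzyme of polyamine synthesis, had ratios of 1.25, 1.09 and 1.38 in WT and 0.762, 0.798 and 0.896 in KO (-0.60), and the antizymes that restrain it, Oaz2 (-0.82) and Oaz1 (-0.61), fell too. Ferritin mRNAs Fth1 (-0.37) and Ftl1 (-0.44) fell. Tfrc, the transferrin receptor, whose mRNA is guarded by iron regulatory proteins at its 3′ UTR, was the member that rose, from 1.48, 1.51 and 1.4 to 2.01, 2.17 and 2.03 (0.50 ± 0.0764). Its nascent RNA was 0.55 lower and its total RNA changed by -0.05.

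Cell death and cell cycle genes moved in both directions. Of 36 caspases and BCL2 family members, 8 fell (22.2%) and 2 rose, and 5 fell and 3 rose under RLE scaling, while 5 fell and 1 rose without WT replicate 1. The pro-apoptotic Bbc3, known as PUMA, had ratios of 0.647, 0.732 and 0.668 in WT and 0.232, 0.306 and 0.262 in KO (-1.34 ± 0.175), and Bok (-0.89) and Bad (-0.80) of the same side of the family fell with it, while Casp2 was called more stable. Among 33 G1-S genes, 6 fell (18.2%) and 3 rose (9.09%), against 3 and 5 under RLE scaling. The 3 that rose with TMM scaling were Rbl2, the S phase cyclin Ccne2 (1.16), whose ratios went from 0.453, 0.541 and 0.511 to 1.26, 1.05 and 1.09, and the CDK inhibitor Cdkn1a (0.92). Ccnd3, a D-type cyclin, fell by 0.86. Of 34 p53 pathway genes, 6 rose (17.6%) and 7 fell (20.6%), against 8 and 4 under RLE scaling. Cdkn1a, Rrm2b (0.60) and Ccng1 (0.58) were on the former side and Bbc3 and Phlda3 (-0.55) on the latter.

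**Figure D3:**
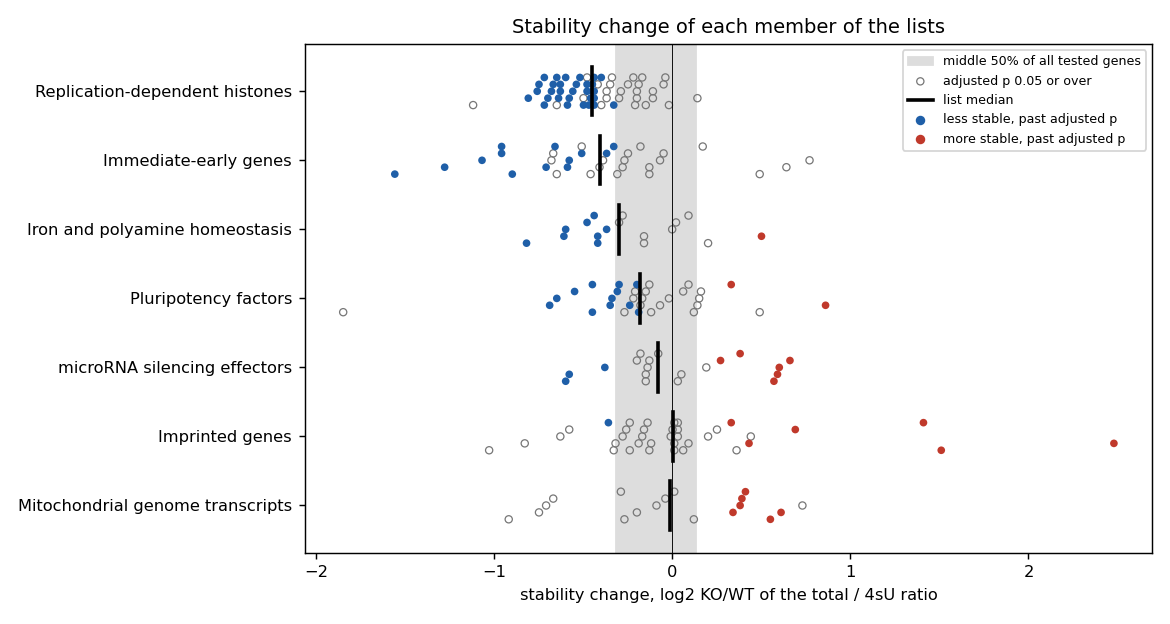
Stability change (log2 KO/WT of the total-to-4sU ratio) of every tested member of 7 lists, with members past adjusted p filled in blue (less stable) or red (more stable), the others open, and the list median as a bar. The grey band is the middle 50% of all tested genes (-0.32 to 0.13), and most histone and immediate-early members lie to its left while the 6 filled mitochondrial mRNAs lie to its right.

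Genes of the silencing machinery itself moved in both directions. Of 19 tested microRNA silencing effectors, 6 rose (31.6%, against 5.02% of all genes) and 3 fell, and the median was -0.08. Under RLE scaling 7 rose and 3 fell. Tnrc6a, a GW182 scaffold that links Argonaute to deadenylases, had ratios of 0.718, 0.818 and 0.861 in WT and 1.31, 1.28 and 1.21 in KO (0.66 ± 0.0858). Ago1 went from 1.20, 1.34 and 1.45 to 1.96, 2.02 and 2.00 (0.59 ± 0.0950), Ago2 changed by 0.19 (adjusted p = 0.0818), and Gigyf1 (0.60), Lsm14b (0.57), Mov10 (0.38) and Tnrc6b (0.27) rose. On the other side were the decay helicase Ddx6, at 1.22, 1.34 and 1.32 in WT and 0.872, 0.847 and 0.843 in KO (-0.60), the cap-binding repressor Eif4e2 (-0.58) and Ajuba (-0.38). Deadenylation, decapping and exosome genes counted 3 rises (8.11%) and 5 falls (13.5%) among 37, near the 5.02% and 11.1% of all genes, and nonsense-mediated decay factors no rises and 4 falls among 14, against no falls under RLE scaling and 2 without KO replicate 1.

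Transcripts of the mitochondrial genome are made and degraded inside the organelle. Of 18 tested, 6 rose (33.3%, against 5.02% of all genes) and none fell, and the median was -0.01 against -0.09 for all genes. The rises numbered 4 without WT replicate 2 and 1 with no filter beyond a single count, and 1 transcript passed as less stable without KO replicate 3. The 6 were heavy-strand mRNAs, mt-Nd1 (0.39), mt-Nd2 (0.34), mt-Co1 (0.55), mt-Nd4 (0.61), mt-Nd5 (0.41) and mt-Cytb (0.38). Being carried by the same strand, they are not independent measurements. For mt-Co1, a core subunit of cytochrome oxidase, ratios were 0.465, 0.431 and 0.436 in WT and 0.631, 0.622 and 0.692 in KO. The light strand mRNA mt-Nd6, at -0.20, did not pass (adjusted p = 0.375). Nuclear genes for the same respiratory complexes showed no rise and 12 falls among 79 (15.2%, against 11.1% of all genes). Under RLE scaling there were 7 of each, and without WT replicate 1 there were 7 falls. Among the falls were Atp5g3 (-0.61), Uqcrq (-0.67) and Sdhd (-0.58).

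Imprinted genes had 6 rises (16.2%, and 4 without KO replicate 1) and 1 fall among 37 (8 and no fall under RLE scaling), with a median of 0.000280. Beside Mirg, Nespas, Ndn and Rian, the rises were H13 (0.69), a signal peptide peptidase, and the antisense silencer Kcnq1ot1 (0.43), and the fall was Grb10 (-0.36), a growth factor receptor adaptor. For Kcnq1ot1 the third KO culture, at a ratio of 0.362, lay among the WT cultures at 0.307, 0.304 and 0.368.

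The stress response list had 7 rises (15.9%) and 5 falls among 44, and 12 rises under RLE scaling. Among the rises were the chaperone cofactor Dnajb9 with ratios of 0.130, 0.168 and 0.152 in WT and 0.373, 0.401 and 0.420 in KO (1.41 ± 0.125), the stress sensor Ern1 (0.78), the chaperone Hspa5 (0.40) and the C/EBP transcription factor Cebpg (0.60). Among the falls were the amino acid response factor Atf4 (-1.04), whose ratios went from 0.307, 0.286 and 0.295 to 0.126, 0.147 and 0.163, the phosphatase subunit Ppp1r15a (-0.67) and the transporter chain Slc3a2 (-0.63).

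Smaller lists added single regulators. Among 15 clock genes 3 rose and 1 fell. Clock, a core activator of the circadian loop, had ratios of 0.672, 0.863 and 0.832 in WT and 1.96, 1.72 and 1.89 in KO (1.23 ± 0.112) with nascent RNA at 0.06, while the repressor Bhlhe40 fell by 1.02 with nascent RNA up by 2.48. In the Hippo list of 27, the kinases Lats2 (0.96) and Lats1 (0.80) and their cofactor Mob1b (0.66) were among 4 rises (14.8%), against 5 falls (18.5%). Lats2 ratios were 0.400, 0.438 and 0.461 in WT and 0.839, 0.929 and 0.768 in KO. The Nodal inhibitor Lefty1 rose by 1.34 and the receptor Tgfbr1 by 0.51 against 6 falls in that list of 30, with 4 rises and 3 falls under RLE scaling and 1 and 3 without WT replicate 1.

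Large housekeeping lists followed, set here against 5.02% of all genes more stable and 11.1% less stable. Cytosolic ribosomal protein genes had 3 rises and 8 falls among 84 (9.52% fell) and a median of -0.08, with 5 and 4 under RLE scaling and with 16 falls without KO replicate 3 but 3 without KO replicate 1. Mitochondrial ribosomal protein genes had 2 rises and 16 falls among 76 (21.1%), and a median of -0.18. The falls numbered 11 under RLE scaling and 11 without KO replicate 1, and were led by Mrpl36 (-0.94), Mrpl34 (-0.89) and Mrpl11 (-0.79). Proteasome subunits had 6 falls among 45 (13.3%, near the share of all genes), or 1 under RLE scaling and 1 without KO replicate 1. Splicing proteins had 4 falls among 55 (7.27%) and 1 rise, against 3 of each under RLE scaling. Zinc finger genes of the Zfp series had 25 rises and 36 falls among 349, a balance that became 38 and 20 under RLE scaling, with 10 rises without KO replicate 1, so no direction is read from it. The cytoskeleton list had 18 falls (25.4%) and 4 rises among 71, with actin itself (Actb, 0.38), Cfl2 (0.85), an actin-severing protein, and Pfn2 (0.96), an actin-binding profilin, among the rises, and 12 falls and 6 rises under RLE scaling. Lysosome and autophagy genes divided into 10 rises, such as Lamp2 (0.85), and 12 falls, such as Gabarapl1 (-0.83), among 74, against 12 and 7 under RLE scaling. Without WT replicate 3 the rises numbered 5.

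Length and base composition differed between the sets of protein-coding genes. The median summed exon length was 3306 bases over all 11884 genes, 3766 among the 74 called more stable and 2146 among the 107 called less stable. The median 3′ UTR was 1371 bases over all genes, 1770 in the former set and 784 in the latter, and the median G+C share of the 3′ UTR was 45.3%, 43.1% and 51.2%. Gene span gave medians of 23018, 21674 and 10005 bases.

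With genes divided into 5 equal groups by summed exon length, the share of genes past adjusted p as less stable went from 18.2% in the shortest group to 9.01% in the longest, and the share as more stable from 1.98% to 8.67%. Across 3′ UTR length the more stable share went from 2.78% to 9.69%. With G+C share of the 3′ UTR the direction was opposite, with 7.96% of genes less stable in the lowest group and 16.1% in the highest. Under RLE scaling the shares for exon length were 12.6% and 4.63% less stable and 3.03% and 13.2% more stable, so the gradient was also present there. Genes are not independent replicates, and the features are related to each other, so these shares are a description.

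**Figure D4:**
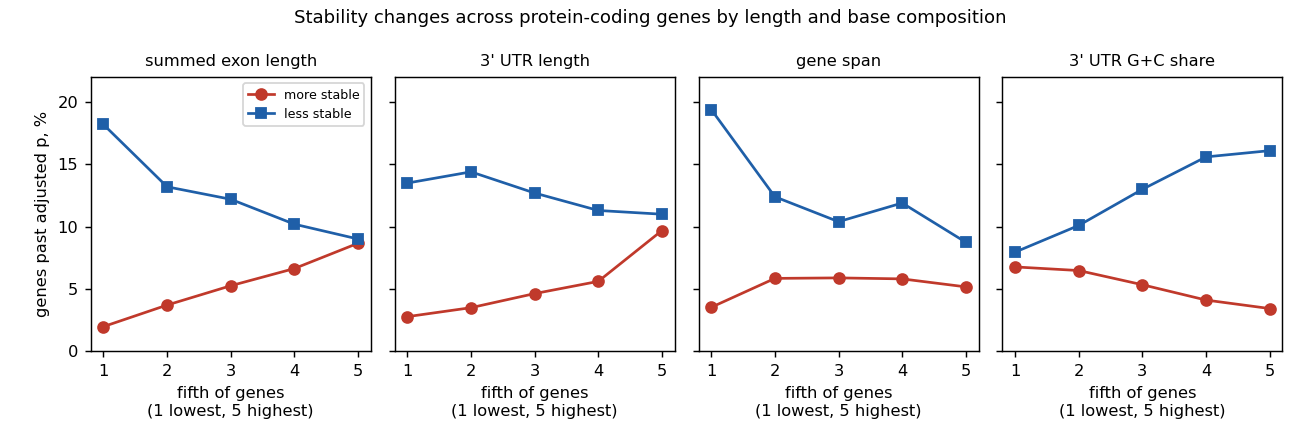
Percentage of protein-coding genes past adjusted p as more stable (red circles) or less stable (blue squares) in 5 equal groups by summed exon length, 3′ UTR length, gene span and 3′ UTR G+C share. The less stable share falls from 18.2% to 9.01% with exon length and climbs from 7.96% to 16.1% with G+C share.

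Matches to the seeds of other microRNAs were counted in the same 3′ UTRs, on the transcript strand only. The 8-to-2 complement of miR-294 (AGCACTT) was in 18.9% of all 11821 3′ UTRs, 52.7% of those of genes called more stable and 11.2% of those called less stable. For miR-17 (GCACTTT), which overlaps it by 6 letters, the shares were 15.4%, 44.6% and 5.61%. Seeds that do not contain that hexamer are given in the same order, for all, more stable and less stable genes. miR-92a (GTGCAAT), another member of the miR-17-92 cluster, had 7.85%, 21.6% and 2.80%, miR-19b (TTTGCAC) 14.3%, 21.6% and 11.2%, miR-148a (TGCACTG) 17%, 25.7% and 9.35%, and miR-30a (TGTTTAC) 17.2%, 21.6% and 5.61%. miR-130a (TTGCACT) had 12.5%, 20.3% and 8.41%, and its match shares GCACT with the hexamer, as that of miR-148a does.

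Of the others, miR-21a (ATAAGCT) had 8.27%, 10.8% and 7.48%, and miR-16 (TGCTGCT) had 27.6%, 36.5% and 21.5%. For let-7a (CTACCTC), which ESCs hold little of, the shares were 12.2%, 8.11% and 7.48%, and for miR-26a (TACTTGA) 12.1%, 12.2% and 4.67%. The AU-rich heptamer TATTTAT, a letter pattern of short-lived mRNAs, was in 30.6% of all 3′ UTRs, 33.8% of the more stable and 21.5% of the less stable set, and in 8 of the 15 leading less stable genes against 5 of the 15 leading more stable ones. Longer 3′ UTRs hold more matches of any kind, and the more stable set has longer ones, so these shares were not compared by a test.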

How the data were processed

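RNA of WT and Dgcr8 KO ESCs was sequenced as 4sU and total libraries, 3 of each per genotype, and samples were grouped by their titles. The titles and genotype labels of the KO samples name DGCR8, while their source label reads DDX8KO, and the titles were followed. The deposited values were whole-number counts per gene, not normalized. The authors trimmed reads with cutadapt 1.14, mapped them uniquely with STAR 2.5.3a to mm10 and counted them with featureCounts 1.5.3 (strand setting 2) against GENCODE M14 without rRNA genes. The 92 spike-in rows held 1 count in all and were left out, so no absolute scaling was possible. Reads carry no molecular identifiers, so counts include amplification copies. Stable identifiers were matched to GENCODE M21 of the same build (51274 of 51467) for gene classes and 3′ UTRs.

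Genes with at least 3 CPM in at least 3 libraries were TMM-scaled in edgeR 4.0.16 and fitted with voom weights in limma 3.58.1 (R 4.3.3) over all 12 libraries with assay, genotype and their interaction, which is the stability change. Total and nascent changes are contrasts of the same fit. Alternatives were the edgeR quasi-likelihood test, DESeq2 1.42.0, limma-trend, 3 other scalings, 2 other filters, 2 replicate blocks and leaving out each of the 6 cultures. The fit was tested on simulated data.

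Named genes were Dgcr8, the 15 coding and 5 other genes per direction with the largest change among those called by limma and edgeR with at least 10 counts in each library and cultures apart, and up to 4 members per direction and list by adjusted p. Other named genes were chosen after their values were seen. The members and lists were chosen with earlier results of these data known. Lists matched protein-coding genes by symbol, or any gene for imprinted, mitochondrial, snoRNA host and nuclear noncoding lists, and 7 entries had no match. Same-numbered 4sU and total libraries of a genotype come from a divided sample per the labels, but their deviations from group means correlated by only 0.0103 to 0.0767, under the 0.1 set as the limit, so the numbers were not used as pairs in the main fit. The ratios of single cultures, and so the rule that cultures be apart, did divide libraries of the same number. Leaving out a culture also removed its same-numbered libraries together.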

Additional observations from a re-analysis of the deposited data

Results flagged for a closer look

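The 40 leading genes by the naming rule were ranked by the difference between total and nascent change, which favours opposite signs. Among all called genes, 26 of 111 more stable (23.4%) and 21 of 136 less stable (15.4%) had both changes past adjusted p with opposite signs. Of the 40 leading genes 20 did, a number that the ranking favours and that is not read as a result. In these the interaction itself, given here as the stability change, separates the assays. Among coding genes with higher total and lower nascent RNA these were Zfp367 (1.72), Serpinb9b (1.57), Tmem123 (1.53), Casp2 (1.48), Gpkow (1.46) and Ndn (1.41). Noncoding genes of that kind were E130102H24Rik (2.96), Gm37296 (2.76), Mirg (2.48), Mir17hg (1.97) and Mir15a (1.75). With lower total and higher nascent RNA there were Gng7 (-1.68), Clgn (-1.62), Maff (-1.56), Pim3 (-1.47), Trmt112 (-1.45), Klf16 (-1.39), Tcf19 (-1.36), 5033406O09Rik (-1.75) and Gm26298 (-1.62).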

How the results depend on the processing

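Scaling set the balance of the directions. Genes called less stable numbered 136, but 90 with RLE scaling and 64 with DESeq2, and 54 where 3 CPM were required in every library, a filter that left 10261 genes and also brought the more stable calls from 111 to 61. Genes past adjusted p as less stable numbered 1557, but 960 with RLE scaling, 811 with DESeq2 and 910 with no filter beyond a single count, which tests 30975 genes. Without single cultures the calls ranged from 97 to 112 more stable and 113 to 146 less stable, and the genes past adjusted p from 502 to 605 and 1138 to 1395. The replicate block by number gave 114 and 140 calls and the block by culture 124 and 138, and neither block ended the call of a named gene. The 40 leading genes by the naming rule kept their direction and call in each alternative that tested them. Exceptions were Efhd1 without WT replicate 2 or KO replicate 2 and, with DESeq2, a gene left without an adjusted p. The rule itself required an edgeR call and cultures apart. Agreement with edgeR was thus fixed in advance, and a call kept without a culture was favoured. Genes with larger changes but under 10 counts in some library, such as Mir27b (3.61), are not among the 40. None of the 391 genes named by rule changed direction. They had all passed adjusted p at the start, which made a reversal unlikely, and other genes in the text were not checked. Of the 391 named genes, 82 lost adjusted p with no filter beyond a single count, 46 with RLE scaling, 50 of 389 with DESeq2 and from 37 to 59 without single cultures. Depth limits the genes under 10 counts in some library, which are 36 of the more stable and 44 of the less stable calls.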

Other observations

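Some lists had large median changes in abundance. The 24 tested genes of the 2-cell-stage-like list, which are normally switched on in the early embryo, had a median change of 2.56 in total RNA and 2.67 in nascent RNA, and a median stability change of -0.04, with 1 member past adjusted p as less stable. That member, Duxf3, had 0 counts in a library, and no member passed under RLE scaling, with DESeq2 or with edgeR. Immunoproteasome and MHC class I genes, which serve antigen presentation, had medians of 1.75 in total and 1.71 in nascent RNA, and a stability median of 0.16 against -0.09 for all genes. Of 18, 1 passed as more stable, against 2 under RLE scaling and with edgeR and 0 without WT replicate 2. In the opposite direction, the 33 genes of cholesterol synthesis and uptake had medians of -0.93 in total and -0.80 in nascent RNA, and their stability median of -0.12 went with 2 rises and 6 falls, against 2 and 2 under RLE scaling. Germline genes had medians of -1.24 and -1.19, with 1 rise and 1 fall among 20, and no fall under RLE scaling or with DESeq2.

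Noncoding host genes of snoRNAs had 1 rise (4.55%) and 3 falls (13.6%) among 22, near the 5.02% and 11.1% of all genes, and a median of -0.09. Under RLE scaling there were 2 rises and 0 falls, with DESeq2 0 of each, and without WT replicate 1 there were 0 falls. Nuclear and growth-linked long noncoding RNAs had 4 rises and 4 falls among 19 (21.1% each, against 5.02% and 11.1% of all genes) and a median of -0.01. Their rises numbered 2 without KO replicate 1 and 6 with DESeq2. The medians describe these libraries and were not compared by a test.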
